A study of Mus musculus with 33 samples.

Results

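Oxidative phosphorylation is carried out by 5 protein complexes of the inner mitochondrial membrane, and the mRNAs for their subunits come from both the nuclear and the mitochondrial genome. The genes described here were all gene names with a mean normalised level of at least 10 in each of 3 immune cell populations that begin with a symbol root of these complexes: mt-Nd, mt-Co, mt-Atp and mt-Cytb for mitochondrial DNA, and Ndufa, Ndufb, Ndufc, Ndufs, Ndufv, Sdha to Sdhd, Uqcr, Cox4i, Cox5 to Cox8 and Atp5 for nuclear DNA. Numbered pseudogenes were left out. The rule gave 105 members of 15965 gene names with that level and of 53735 names in all. Of these, 13 were mitochondrially encoded subunits and 92 were nuclear encoded. The nuclear encoded members comprised 77 subunits, 13 assembly factors or other non-subunits (7 Ndufaf and 4 Sdhaf genes, Atp5s and Atp5sl) and 2 pseudogenes without a number in their name, Ndufab1-ps and Atp5l2-ps. No treatment effect was used to choose them.

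The cells came from orthotopic KCKO tumours, a mouse pancreatic ductal adenocarcinoma cell line of which 100000 cells were injected into the tail of the pancreas of C57BL/6 mice, and RNA sequencing was done on sorted cells. The sort for inflammatory monocytes (IM) was CD45+CD11b+Ly6C+Ly6G-, that for macrophages of the tumour (TAM) was CD45+CD11b+Ly6CmodLy6G-F480+, and that for CD8 T cells (CD8) was CD45+CD8+. The treated groups were stereotactic body radiotherapy (SBRT, 6 Gy in each of 4 fractions on days 6 to 9 after implantation), recombinant interleukin 12 released from microspheres (IL-12, 0.5 µg in 2 mg of beads injected into the tumour on day 10) and both (the combination), and each was set against unirradiated tumours. IM and CD8 had 3 libraries in every group, while TAM had 2 after SBRT, 3 after IL-12, 2 after the combination and 2 unirradiated ones. The protocol also names empty microspheres as a control without saying which groups received them, and the labels give neither the age or sex of the mice, the day of harvest, nor whether libraries of a group came from separate mice, so that every p-value below rests on differences among libraries that may be technical. The 33 libraries were deposited as 9 tables of the authors' DESeq2 results with 1 mean level per gene and population, so the value of a single library, the depth and the overlap of groups cannot be shown here.

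Complex I (NADH dehydrogenase), complex III (cytochrome bc1) and complex IV (cytochrome c oxidase) pass electrons to oxygen and pump protons, complex II (succinate dehydrogenase) feeds in electrons from succinate, and complex V is the ATP synthase driven by the proton gradient. Complexes I, III, IV and V are mosaics of both genomes, while complex II is wholly nuclear encoded. The mitochondrial mRNAs are cut from long polycistronic transcripts of the circular genome, so they share their transcription, whereas each nuclear subunit has its own promoter, many of them with sites for the factors NRF1 and NRF2 (an ETS family factor also called GABP). In myeloid cells and in T cells oxidative metabolism is known to shift with activation.

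The sorted populations carried their defining markers in the authors' deposited tables. The monocyte genes Ly6c2 and Ccr2 had levels of 49540 and 48380 in IM, the macrophage genes C1qb and Apoe had levels of 235500 and 694700 in TAM, and Cd8a and Cd3e had levels of 44250 and 31330 in CD8. IM also held C1qb at 70400 and Apoe at 100500, so macrophage genes were not restricted to TAM. The 7 monocyte markers had levels of 151.9 (Vcan) to 20990 (Fn1) in TAM. In CD8 the 5 dendritic cell markers had levels of 90.96 (Clec9a) to 1300 (Siglech), and that sort named no T cell marker other than CD8. The 7 T cell markers had levels of 147.6 to 442 in IM and of 166.3 to 317.8 in TAM. In all populations these are RNAs of sorted bulk cells, in which fewer cells of a type and less RNA per cell cannot be told apart.

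By complex, the members were 7 mitochondrially encoded and 36 nuclear encoded subunits of complex I, 4 nuclear encoded subunits of complex II, 1 and 8 of complex III, 3 and 14 of complex IV, and 2 and 15 of complex V. The members nearest above the level minimum were the complex IV subunits Cox7a1, with deposited levels of 91.1 in IM, 149.6 in TAM and 47.73 in CD8, and Cox6b2, with levels of 77.64, 67.07 and 84.81 in the same order of populations. Just outside were Cox6a2, with levels of 9.516 in IM, 95.59 in TAM and 286.5 in CD8, and Ndufa4l2, with 13.75, 79.28 and 1.214. Cox4i2, the isoform of subunit 4 known from lung and hypoxic cells, was left out by CD8 alone, where its level was 5.093 against 97.57 in IM and 498.9 in TAM. Cox7b2, Cox8b and Cox8c, isoforms of restricted tissues, were at or near 0 everywhere.

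The sequences just upstream of 5 nuclear encoded genes with a call described below are shown: Cox6b2 for TAM, Cox6a1 and Cox5a for CD8, and Atp5g3 and Cox8a for IM. They are examples. Cox6b2 was the only member called in TAM, and Cox5a had the smallest adjusted p of the members in CD8. Atp5g3 and Cox8a were not the strongest calls in IM. Stretches with more annotated exon bases than that of Cox6a1 were left out, among them those of Sdhb, Ndufa5 and Sdhd. Those of Ndufb6 and of a start of Atp5j hold no annotated exon but are not printed. Each is the 130 bases that end 1 base before the transcript start in RefSeq (build GRCm38.p6), given 5′ to 3′ on the strand of the gene. They lie at chr7:4753095-4753224 on the minus strand for Cox6b2, chr5:115348959-115349088 minus for Cox6a1, chr9:57521102-57521231 plus for Cox5a, chr2:73911327-73911456 minus for Atp5g3 and chr19:7217617-7217746 minus for Cox8a. By GENCODE M21, 23 bases of the Cox6a1 stretch also lie in an annotated exon of Cox6a1, and the other 4 stretches hold no annotated exon. Capitals mark the ETS letters CTTCCGG, the reverse complement of CCGGAAG.
Cox6b2: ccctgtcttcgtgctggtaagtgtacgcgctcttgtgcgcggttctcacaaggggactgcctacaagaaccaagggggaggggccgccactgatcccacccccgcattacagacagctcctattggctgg
Cox6a1: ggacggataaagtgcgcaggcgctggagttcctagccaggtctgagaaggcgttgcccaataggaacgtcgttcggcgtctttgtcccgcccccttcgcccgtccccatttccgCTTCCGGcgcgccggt
Cox5a: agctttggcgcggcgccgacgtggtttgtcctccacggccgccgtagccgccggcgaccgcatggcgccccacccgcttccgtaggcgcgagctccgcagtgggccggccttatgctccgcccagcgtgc
Atp5g3: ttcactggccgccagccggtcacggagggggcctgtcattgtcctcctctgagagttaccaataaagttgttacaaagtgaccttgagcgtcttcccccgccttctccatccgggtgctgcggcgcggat
Cox8a: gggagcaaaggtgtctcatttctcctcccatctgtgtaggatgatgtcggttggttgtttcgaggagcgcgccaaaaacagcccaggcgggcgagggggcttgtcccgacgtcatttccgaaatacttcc

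Within 250 bases upstream of the start, both strands searched, the NRF1 letters GCATGCGC stood in 8 of 71 windows of the nuclear encoded subunits (11.3%), against 2.26% of all 32851 promoter windows and 4.38% of the 11711 windows of genes at the level minimum. Windows were found for 66 of the 77 subunits, some with more than 1 start. The ETS letters CCGGAAG stood in 12 of the 71 windows (16.9%), against 6.91% of all windows and 13.7% of those at the level minimum. The YY1 letters AAGATGGCG stood in 1 window (1.41%), that of Atp5j, against 0.606% and 1.22%. Among the genes called below, the NRF1 letters were in the windows of Cox6a1 and Sdhb, and the ETS letters in those of Atp5j, Cox6a1, Ndufb6, Ndufs3 and Sdhd. No window of the Cox6b2 gene held any of the 3 motifs, while that of its paralogue Cox6b1 held the ETS letters 22 to 28 bases before the start. These are matches of letters, not measured binding.

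Per kilobase of exon, the mitochondrially encoded mRNAs stood well above the nuclear encoded ones in all 3 populations. Their median level per kb was 22200 in IM, 33250 in TAM and 47080 in CD8, while the median of the 77 nuclear encoded subunits was 2721, 2461 and 3267. The highest was mt-Co3, a core subunit of complex IV, with 129800 per kb in IM, 163800 in TAM and 249800 in CD8. The lowest was mt-Nd6, the only one of the 13 encoded on the other strand of mitochondrial DNA, with 5182, 7041 and 10430 per kb. mt-Co1, also of complex IV, had 88730 per kb in IM, 124200 in TAM and 166700 in CD8. The proton channel subunit of ATP synthase, mt-Atp6, had 84280, 106100 and 183400 per kb, above mt-Co1 in CD8 and below it in IM and TAM. mt-Co2 was lower than both in each population, with 75270, 102900 and 149400 per kb. Of the 50-base windows of mt-Co1, mt-Co2, mt-Co3 and mt-Atp6, 51.1% to 100% also occur in another annotated gene, which can affect their counts. Among the nuclear encoded subunits Cox8a was highest per kb, at 22510, 25060 and 25390, and Cox6b2 was lowest, at 70.07, 60.53 and 76.55. Summed without correction for length, the mitochondrially encoded mRNAs made up 52.48% of the subunit level in IM, 60.02% in TAM and 63.37% in CD8. The populations were normalised separately, and the files hold no value per library, so these shares carry no error and levels were not compared between populations by a test.

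**Figure D1:**
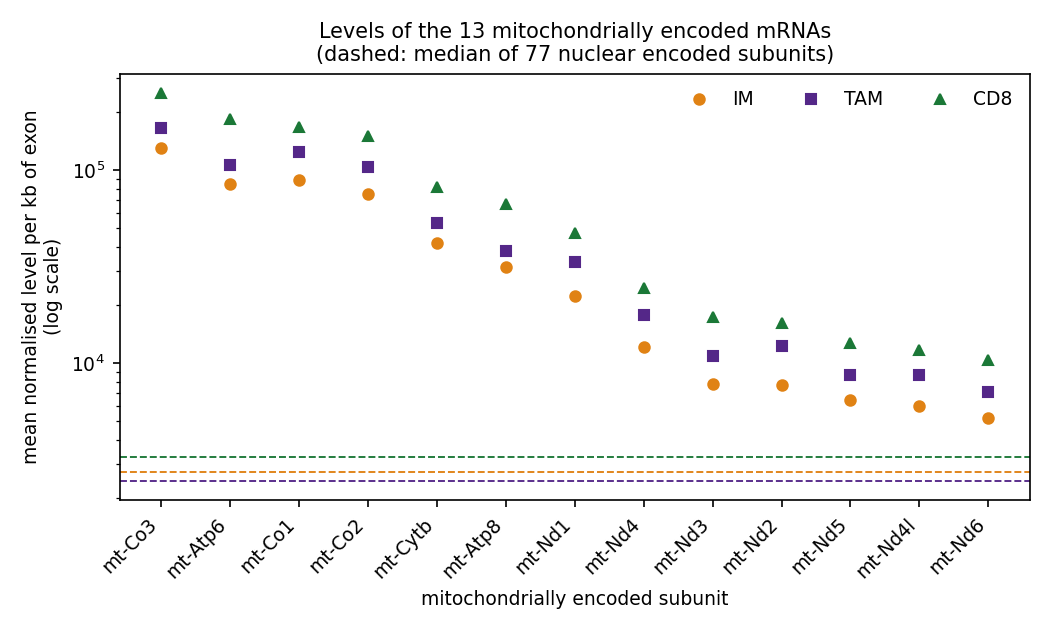
Mean normalised level per kb of exon (log axis) of the 13 mitochondrially encoded mRNAs in IM, TAM and CD8 (symbols), ordered by the CD8 level, with the median of the 77 nuclear encoded subunits of each population as a dashed line. mt-Co3 was highest, from 129800 in IM to 249800 in CD8, and mt-Nd6 lowest, from 5182 in IM to 10430 in CD8, above the nuclear medians of 2461 to 3267.

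After treatment the mRNAs of the 2 genomes lay apart in IM. The authors' deposited log2 fold changes of the 13 mitochondrially encoded members were all below 0 against unirradiated monocytes in each treatment, with medians of -0.29 after SBRT, -0.27 after IL-12 and -0.32 after the combination. Those of the 92 nuclear encoded members had medians of 0.10, 0.12 and 0.18 for the same treatments, and the medians over all genes tested were -0.02, -0.02 and -0.02. Of the 77 nuclear encoded subunits, 67 were above 0 after SBRT, 69 after IL-12 and 71 after the combination, that is 87%, 89.6% and 92.2%, against 46%, 46.6% and 47.2% of all genes tested. After the combination, 76 of the 77 nuclear encoded subunits had a higher fold change than the highest mitochondrially encoded one, and the counts were 76 after SBRT and 73 after IL-12. The 3 treatments share their unirradiated libraries, so they are not independent of each other. Single members mostly did not pass the test, and the medians are descriptions without a test.

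In TAM the mitochondrially encoded members were again below 0 in all 3 tables, while the nuclear encoded ones lay near 0. The medians of the mitochondrially encoded members were -0.29 after SBRT, -0.32 after IL-12 and -0.10 after the combination. The medians of the 92 nuclear encoded members were 0.03, -0.00 and 0.02, beside 0.00, -0.01 and 0.00 over all genes tested. Above 0 were 47 of the 77 nuclear encoded subunits after SBRT (61%), 34 after IL-12 (44.2%) and 46 after the combination (59.7%), against 50.8%, 48.6% and 50.1% of all genes tested. Nuclear encoded subunits above the highest mitochondrially encoded one numbered 73, 58 and 54 of 77.

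In CD8 cells the mitochondrially encoded members lay around 0, with medians of 0.03 after SBRT, -0.05 after IL-12 and 0.01 after the combination, and 8, 5 and 7 of the 13 were above 0. The nuclear encoded members had medians of 0.12, 0.17 and 0.12, and 60, 70 and 67 of the 77 nuclear encoded subunits were above 0 (77.9%, 90.9% and 87%, against 49.4%, 48.6% and 45.6% of all genes tested). Only 25, 49 and 48 of the 77 nuclear encoded subunits were above the highest mitochondrially encoded one, fewer than in IM.

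**Figure D2:**
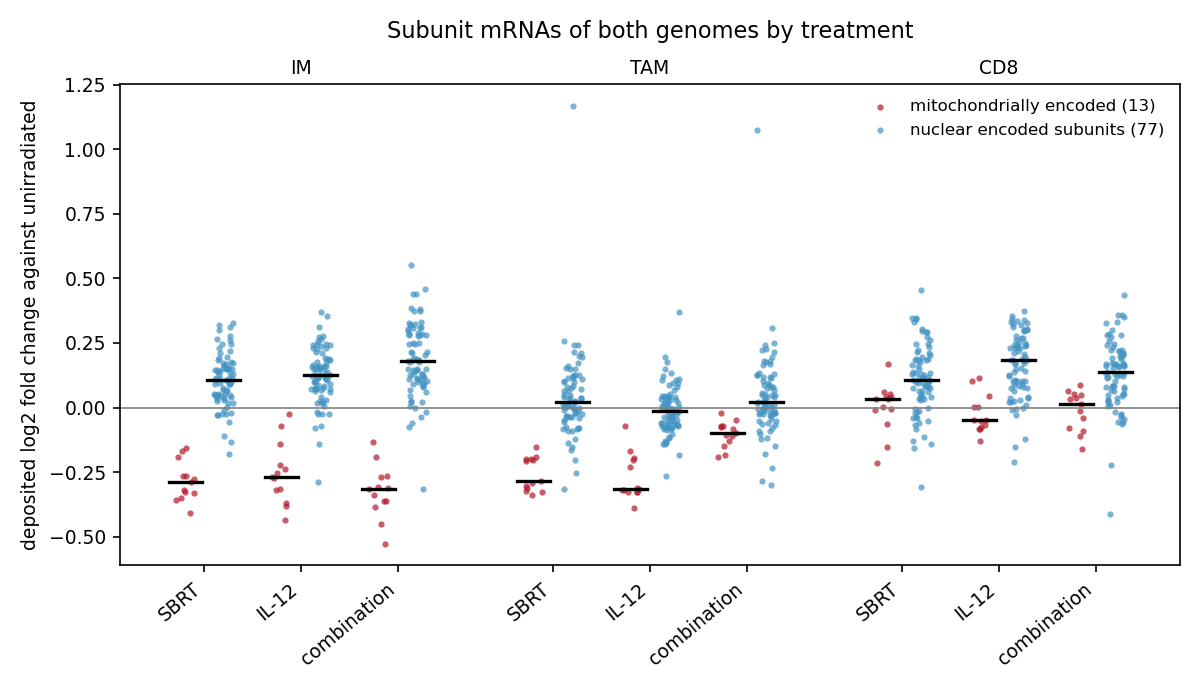
Deposited log2 fold change against unirradiated of each of the 13 mitochondrially encoded and 77 nuclear encoded subunits (points; black bars are medians) after SBRT, IL-12 and the combination in IM, TAM and CD8. In IM the mitochondrially encoded medians of -0.29, -0.27 and -0.32 lie below the nuclear medians, and in CD8 both sets lie near or above 0.

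Taking the fold changes back to levels gives the share of mitochondrially encoded mRNA implied for each group. In IM it was 50.9% after SBRT, 51.35% after IL-12 and 49.69% after the combination, against 57.71% in unirradiated tumours. In TAM it was 58.34%, 57.99% and 61.11% after the same treatments, against 63.15% in unirradiated tumours. In CD8 it was 63.45%, 61.93% and 62.92%, against 65.2% in unirradiated tumours. These shares are approximate, because they rest on the mean level over groups and on shrunken fold changes, and they carry no error.

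**Figure D3:**
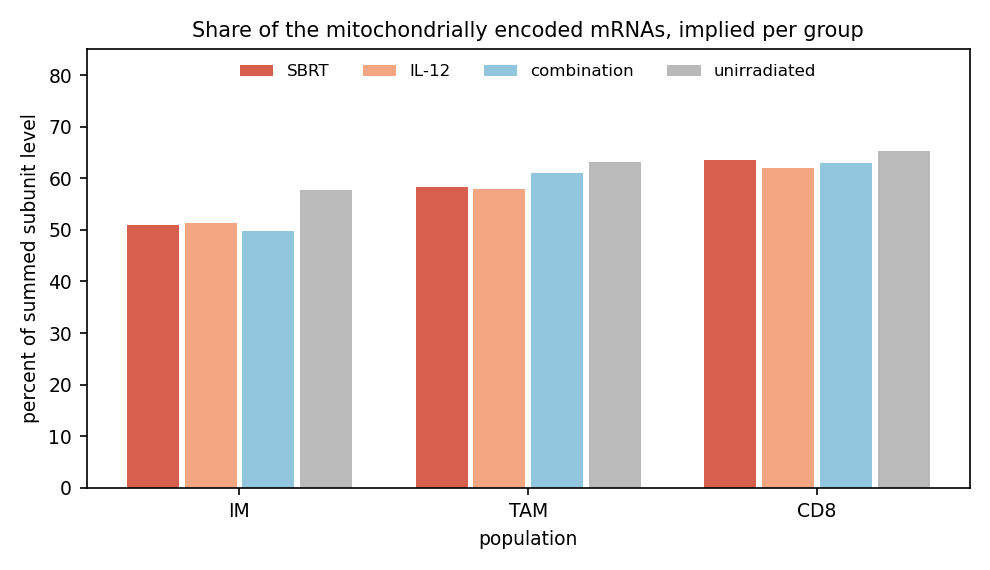
Share of the summed level of all subunits that came from the 13 mitochondrially encoded mRNAs, in percent, implied for each group (bars, from SBRT to unirradiated) of IM, TAM and CD8. In each population the unirradiated bar is the highest, at 57.71% in IM, 63.15% in TAM and 65.2% in CD8.

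Among the 13 mitochondrially encoded members, 1 was called at a deposited adjusted p below 0.05 in 1 of the 9 tables. mt-Nd4l, a membrane subunit of complex I, fell by 0.53 on the log2 scale in IM after the combination (SE 0.18, adjusted p = 0.0457 in the authors' deposited table). It is 1 of 13 in a comparison in which 3.03% of all genes tested were called lower. Its deposited log2 fold changes were -0.41 after SBRT and -0.43 after IL-12, with adjusted p of 0.520 and 0.220. The call was lost under each of 3 other ways of adjusting or scaling, where its adjusted p lay between 0.0561 and 0.404. Its exons share 7 bases with mt-Nd4, and 98.8% of its 50-base windows also occur in another annotated gene. That share was 100% for mt-Co2, 99.9% for mt-Co3, 99.5% for mt-Atp6, 98% for mt-Nd3, 62.2% for mt-Nd4 and 51.1% for mt-Co1.

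The other complex I members of mitochondrial DNA had deposited log2 fold changes in IM that ran from -0.45 (mt-Nd4, after the combination) to -0.03 (mt-Nd6, after IL-12). For mt-Nd1 these were -0.29 after SBRT, -0.27 after IL-12 and -0.31 after the combination, for mt-Nd2 -0.27, -0.24 and -0.34, for mt-Nd3 -0.27, -0.22 and -0.36, and for mt-Nd5 -0.16, -0.07 and -0.27. Their standard errors in IM lay between 0.177 for mt-Nd2 and 0.235 for mt-Nd6, so most single values were within about 2 standard errors of 0. In TAM the same 7 genes ran from -0.33 (mt-Nd4l, after IL-12) to -0.02 (mt-Nd4, after the combination). In CD8 they ran from -0.21 (mt-Nd3, after SBRT) to 0.17 (mt-Nd5, after SBRT), and none of them was called in either population.

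mt-Cytb, the cytochrome b of complex III, had deposited log2 fold changes of -0.32 after SBRT, -0.32 after IL-12 and -0.39 after the combination in IM. In TAM the values were -0.32, -0.39 and -0.18, and in CD8 0.06, -0.05 and 0.01. mt-Co1, which carries the oxygen-reducing centre of complex IV, was among those nearest to 0 in IM, with -0.19, -0.14 and -0.13, against -0.20, -0.32 and -0.07 in TAM and -0.06, -0.13 and -0.04 in CD8. mt-Co2 had -0.33, -0.27 and -0.27 in IM and mt-Co3 -0.35, -0.25 and -0.32. For complex V, mt-Atp6 had -0.33, -0.37 and -0.36 in IM and mt-Atp8 -0.28, -0.32 and -0.31. None of these 6 genes was called in any table. The 2 ATP synthase genes overlap by 43 bases, so their reads cannot be fully told apart.

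The mitochondrial ribosomal RNAs mt-Rnr1 and mt-Rnr2, which are not members, were not called either. In IM mt-Rnr1 had deposited log2 fold changes of -0.08 after SBRT, -0.06 after IL-12 and -0.20 after the combination, and mt-Rnr2 had -0.08, -0.12 and -0.15. In TAM the values were -0.19, -0.12 and 0.13 for mt-Rnr1 and -0.18, -0.33 and -0.03 for mt-Rnr2. Library kits of this type select polyadenylated RNA, so ribosomal RNA levels need not follow those in the cell. Of the markers of RNA quality, 0 of 9 dissociation stress genes were called in any of the 9 tables. Their summed levels were 2153000 in IM, 1731000 in TAM and 432100 in CD8, so stress shared by all groups would not appear as a call. Of 3 nuclear retained RNAs 1, Neat1, was called, higher in TAM after the combination. The 2 with the level minimum were above 0 in all 3 TAM tables, with medians of 0.42, 0.15 and 0.68. Their medians were -0.21, -0.11 and 0.07 in IM and 0.13, -0.07 and -0.12 in CD8. The part of RNA quality in the fold changes of the mitochondrially encoded members was not tested.

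In IM, neither single treatment gave a call among the members. After SBRT 0 of the 105 members were called, in a table where 0.379% of all genes tested were called higher and 0.14% lower, and 14 members had an unadjusted p below 0.05, beside 1362 of 19273 genes tested. After IL-12 0 were called, where 1.91% of genes were called higher and 1.33% lower, and 18 had an unadjusted p below 0.05, beside 1993 of 16829 genes tested. The nearest to the threshold was Ndufs3, with a deposited adjusted p of 0.0541 after IL-12.

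The combination raised 13 of the 92 nuclear encoded members in IM and lowered 1, in a table where 3.69% of all genes tested were called higher. The 13 comprised 5 subunits of complex I, 2 of complex II, 2 of complex IV, 3 of complex V and 1 pseudogene, and none of the 8 nuclear encoded subunits of complex III was called. The changes were small, between 1.24-fold and 1.47-fold.

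In complex I, Ndufa5, an accessory subunit of the peripheral arm, was 1.47-fold higher in the authors' deposited table for IM after the combination (log2 fold change 0.55, SE 0.12, adjusted p = 0.000288), the largest change among the 13. Ndufs3 and Ndufs7, core subunits of the arm that carries electrons to ubiquinone, rose by 0.38 and 0.31 on the log2 scale (adjusted p = 0.0167 and 0.0257). Ndufs4, an accessory subunit needed for a stable complex and known from mouse models of Leigh syndrome, rose by 0.31 (adjusted p = 0.0377). Ndufa12 rose by 0.38 (adjusted p = 0.0301). Exons of Ndufs3 overlap those of Kbtbd4 on the other strand by 85 bases, and the library kit did not mark strand.

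In complex II, Sdhb, the iron-sulfur subunit, had the smallest adjusted p of all members, with 1.35-fold higher mRNA (log2 0.44, SE 0.09, adjusted p = 8.0e-05 in the authors' deposited table). Sdhd, one of its membrane anchors, rose by 0.46 (SE 0.12, adjusted p = 0.00253). Sdha, the flavoprotein subunit of the same enzyme, had -0.06 and Sdhc, the other anchor, 0.11, with adjusted p of 0.927 and 0.728.

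In complex IV, Cox5b and Cox8a, small subunits around the catalytic core, rose by 0.33 and 0.32 on the log2 scale in the authors' deposited table for IM after the combination (SE 0.10 and 0.11, adjusted p = 0.0200 and 0.0469). In complex V, Atp5o, a stalk subunit known as the oligomycin sensitivity conferring protein, rose by 0.44 (SE 0.12, adjusted p = 0.00917). Atp5j, coupling factor 6 of the peripheral stalk, rose by 0.37 (SE 0.10, adjusted p = 0.00426), and 175 of its exon bases overlap Gabpa. Atp5g3, which encodes the proton-carrying c subunit, rose by 0.32 (SE 0.09, adjusted p = 0.00457).

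The pseudogene Ndufab1-ps rose by 0.38 (adjusted p = 0.0260) in the authors' deposited table, and 74.2% of its 50-base windows also occur in its parent Ndufab1, which had 0.28 with an adjusted p of 0.184. Ndufaf7, a methyltransferase that assists assembly of complex I, was the 1 nuclear encoded member that fell, by 0.65 on the log2 scale (SE 0.20, adjusted p = 0.0250). Of the 13 higher and 2 lower calls in this table, those of Ndufa5 and Sdhb alone were kept when the statistic was scaled to its own spread over genes. With p adjusted over all genes with a p, 11 calls were kept, and Cox8a (adjusted p = 0.0820), Ndufa12 (0.0527), Ndufs4 (0.0659) and mt-Nd4l (0.0799) were not.

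Cell type markers moved in the same monocyte tables. After the combination 2 of the 7 monocyte markers were called higher and 5 lower, with an implied summed level of 240500 against 316800 in unirradiated tumours, and after IL-12 also 2 higher and 5 lower, with a sum of 270300. Of the 8 macrophage markers, 3 were called higher and 1 lower after the combination, with a summed level of 331200 against 327600. Of 4 endothelial markers all were above 0 and 1 was called higher, with sums of 1237 against 798.4. Of 5 neutrophil markers 1 was called lower (5998 against 8042), of 5 epithelial markers 1 lower (1056 against 956.3), of 7 acinar markers 1 lower (1276 against 1365), and of 5 dendritic cell markers 1 higher and 1 lower (492.3 against 561.2). None of the 7 T cell markers was called, with sums of 1476 against 1652, and no list had all of its markers at 0. Their part in the changes of the members was not tested.

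In CD8 cells the called members belonged to complexes I and IV. After SBRT 0 of 105 members were called, in a table where 0.306% of genes tested were called higher and 0.165% lower, and 18 had an unadjusted p below 0.05, beside 1796 of 16359 genes tested. IL-12 raised 2 of the 92 nuclear encoded members, where 1.48% of genes were called higher and 1.04% lower, and the combination raised 4, where 4.51% were called higher and 2.96% lower. Both counts of calls are near the background share, so the calls are no result about the set. After IL-12, 31 of the 105 members had an unadjusted p below 0.05, all higher, beside 1997 of 13876 genes tested. After the combination 19 did, beside 2957 of 15115. The set as a whole was not tested.

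Cox5a, a matrix-side subunit of complex IV, rose by 0.35 after IL-12 and by 0.44 after the combination on the log2 scale in the authors' deposited tables for CD8 (SE 0.10 in each, adjusted p = 0.0340 and 0.00110). Cox6a1, the widely expressed isoform of subunit 6a, rose by 0.34 and 0.36 (SE 0.10, adjusted p = 0.0458 and 0.0130). After SBRT, Cox5a had 0.19 and Cox6a1 0.23, with adjusted p of 0.509 and 0.363. After the combination Ndufa5 rose by 0.35 (SE 0.11, adjusted p = 0.0291) and Ndufb6, an accessory subunit of the membrane arm, by 0.30 (SE 0.09, adjusted p = 0.0263). Ndufa5 was the 1 member called in both IM and CD8, each time after the combination. Exons of Ndufb6 overlap Smim27 by 257 bases. Markers of other cells moved here too: of 4 endothelial markers 2 were called lower after the combination, with a summed level of 1168 against 1881 in unirradiated tumours, and 1 of 4 lower after IL-12, with a sum of 1197. Of 4 natural killer cell markers 1 was called higher after IL-12, with a sum of 5082 against 4351. After the combination none of the 8 macrophage markers was called, but all 8 were below 0, with a median of -0.49 and a sum of 7888 against 11550. Of 5 fibroblast markers 1 was called lower (417.2 against 603), of 7 monocyte markers 1 lower (34050 against 27980), and of 3 mast cell markers 1 higher (296.5 against 187.5). Their part in these changes was not tested.

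**Figure D4:**
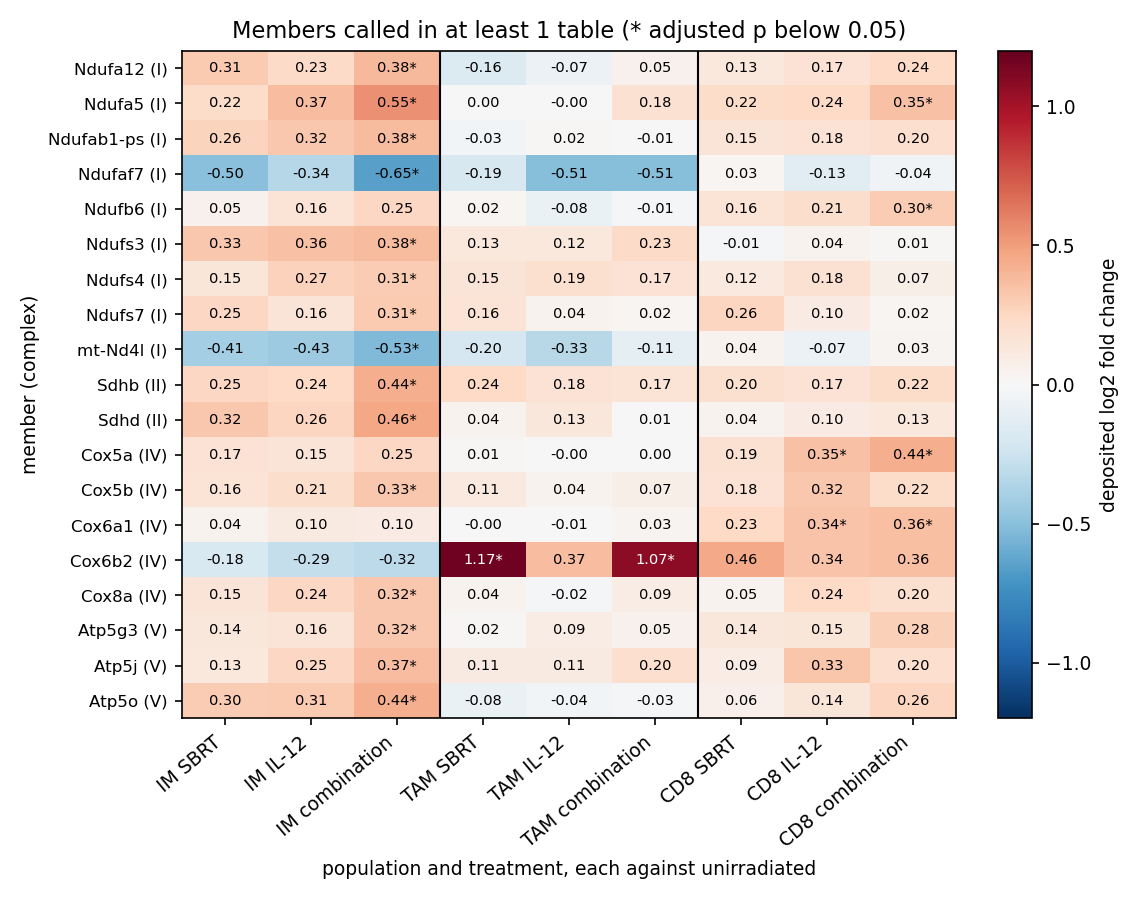
Deposited log2 fold change (colour and printed value) of the 19 members called in at least 1 of the 9 tables, with the complex in brackets and an asterisk where the deposited adjusted p was below 0.05. Of the 19, 15 carry an asterisk in IM after the combination, 4 in CD8 and 1, Cox6b2, in TAM.

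In TAM the treatments left the set largely uncalled, with 1 exception, Cox6b2. SBRT raised this gene alone among the 105 members, in a table where 0.933% of genes tested were called higher and 1.15% lower, and so did the combination, where 2.24% were called higher and 1.97% lower. After IL-12 0 members were called, where 0.651% were called higher and 0.284% lower, and 3 had an unadjusted p below 0.05, beside 1282 of 19042 genes tested. A count of 1 in 105 is near the background share.

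Cox6b2 encodes the testis isoform of subunit 6b, which faces the intermembrane space of complex IV near the binding site of cytochrome c. In the authors' deposited tables for TAM it was 2.25-fold higher after SBRT (log2 1.17, SE 0.26, adjusted p = 0.00101) and 2.11-fold higher after the combination (log2 1.08, SE 0.25, adjusted p = 0.00186). After IL-12 it had 0.37 with an adjusted p of 0.677. The implied levels were 92.95 after SBRT, 53.49 after IL-12 and 87.24 after the combination, against 41.4 in unirradiated tumours, so the 2 irradiated groups were the high ones. These levels are low: Cox6b2 had 60.53 per kb in TAM, the lowest of the 77 nuclear encoded subunits. Its paralogue Cox6b1, the isoform of most tissues, had implied levels of 12670, 11140 and 12710 after these treatments, against 10900 in unirradiated tumours, and log2 fold changes of 0.22, 0.03 and 0.22 that were not called. In IM Cox6b2 had -0.18 after SBRT, -0.29 after IL-12 and -0.32 after the combination, and in CD8 0.46, 0.34 and 0.36, none of them called.

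**Figure D5:**
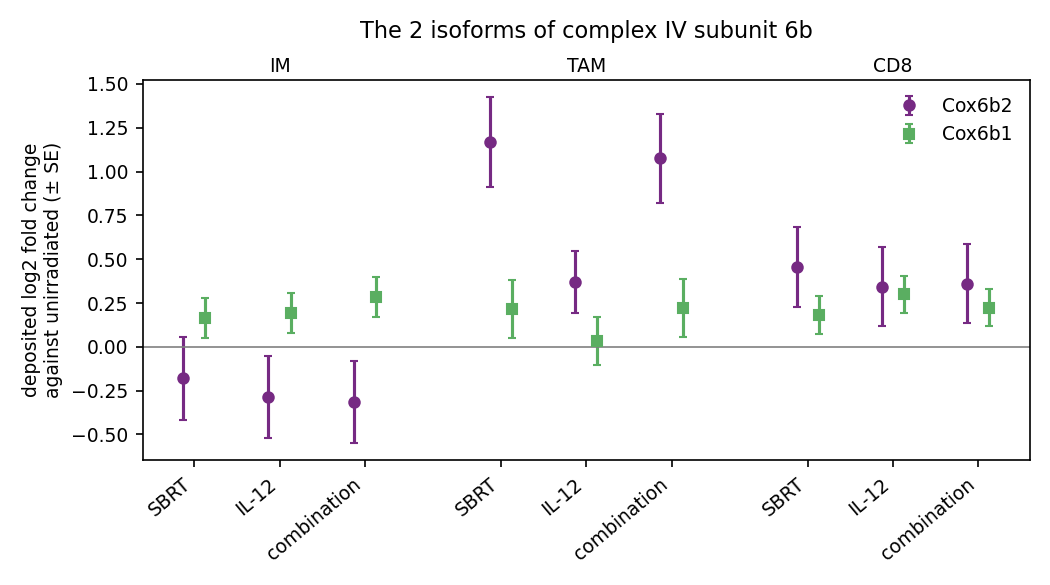
Deposited log2 fold change against unirradiated (± SE of the fold change) of Cox6b2 and Cox6b1 in the 9 tables. Cox6b2 stands at 1.17 after SBRT and 1.08 after the combination in TAM, while Cox6b1 stays between 0.03 and 0.30 in all 9.

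The Cox6b2 gene lies at chr7:4751792-4753094 on the minus strand (GRCm38), and its exons overlap no other annotated gene. Of its neighbours, Suv420h2 (annotated as Kmt5c) had deposited log2 fold changes of 0.31 after SBRT and -0.02 after the combination in TAM, Tmem238 had -0.38 and -0.63, Ube2s had -0.31 and -0.49, and Rpl28 had -0.01 and 0.05. None of them was called. Radiation targets of the p53 pathway were called in the same tables: Cdkn1a, the p21 cell cycle inhibitor, had 1.41 after SBRT and 1.29 after the combination, and Phlda3 had 3.49 and 3.31, while after IL-12 they had 0.05 and -0.24. Cdkn1a was also called in CD8, with 0.59 after SBRT and 0.94 after the combination. Phlda3 was also called in IM after the combination, with 0.71. Cox6b2 was not called in any of those comparisons, and a link between it and these genes was not tested. Of the 5 fibroblast markers, 1 was called lower after SBRT and 2 after the combination, with implied summed levels of 1592 and 1735 against 2725 in unirradiated tumours. Of the 7 monocyte markers, 1 was called higher and 2 lower after each, with sums of 58600 and 52970 against 78050. Of the 5 B and plasma cell markers, 2 were called lower after SBRT and 1 after the combination, with sums of 520 and 639.4 against 819.2. Of the 2 CD4 markers 1 was called lower after SBRT (142.9 against 270.5). After the combination 1 of the 8 macrophage markers was called lower (1266000 against 1428000) and 1 of 4 endothelial markers higher (2178 against 1871). Of the 5 epithelial markers none was called, with sums of 1534 and 2526 against 2338. The part of other cells in the change of Cox6b2 was not tested.

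Other paralogue families within the complexes had small fold changes. Of the 3 genes for the c subunit of ATP synthase, which encode the same mature protein behind different import peptides, Atp5g3 had deposited log2 fold changes of 0.14 after SBRT, 0.16 after IL-12 and 0.32 after the combination in IM. Atp5g1 had 0.19, 0.15 and 0.21 and Atp5g2 0.12, 0.07 and 0.18 there, and neither was called. In TAM Atp5g1 had -0.25, -0.03 and -0.30. Cox4i1, the main isoform of subunit 4, had 0.03, 0.08 and 0.08 in IM and between -0.14 and 0.09 in TAM and CD8. Cox7a1, the isoform of heart and muscle, Cox7a2, the widely expressed one, and Cox7a2l, which helps to join complexes III and IV into supercomplexes, were not called in any table with an adjusted p. Cox7a2l had the lowest deposited values of the subunits in CD8, with -0.31 after SBRT, -0.21 after IL-12 and -0.41 after the combination, the last with an adjusted p of 0.0582. Ndufa4, named for complex I and now counted with complex IV, had -0.31, -0.03 and -0.23 in TAM without a call.

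The 13 assembly factors and other non-subunits were described apart from the subunits, with no test of a difference between them. Their median log2 fold change in the authors' deposited tables was 0.09 after SBRT, 0.08 after IL-12 and 0.15 after the combination in IM, 0.08, 0.04 and -0.18 in TAM, and 0.16, -0.01 and 0.01 in CD8, and Ndufaf7 in IM was their only call. In IM these medians lay on the same side of 0 as those of the subunits. In IM the nuclear encoded subunits of complexes I to V had medians of 0.18, 0.28, 0.14, 0.14 and 0.20 after the combination, so no single complex set the nuclear median. In CD8 after IL-12 the 14 of complex IV had the highest median, 0.30, against 0.18 for complex I, 0.14 for complex II, 0.09 for complex III and 0.15 for complex V. There, 10 of the 14 had an unadjusted p below 0.05 in the higher direction, beside 1026 of 13876 genes tested. The same held for 12 of 36 in complex I, 0 of 4 in complex II, 2 of 8 in complex III and 5 of 15 in complex V. Complex IV was picked by its median in these same values, and the complexes were not tested against each other.

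Differences between treatments were not detected for any member. For the combination minus SBRT, the combination minus IL-12, IL-12 minus SBRT and the interaction (the combination minus both single effects), 0 of 105 members were called after Benjamini-Hochberg adjustment of a normal test over all genes. In IM 0.21%, 0.0%, 0.0244% and 0.00305% of all genes were called in these 4 contrasts, in TAM 0.00309%, 0.0741%, 0.0896% and 0.0124%, and in CD8 0.0756%, 0.00302%, 0.0212% and 0.00302%. Members with an unadjusted p below 0.05 numbered 0, 0, 0 and 0 in IM, 1, 0, 1 and 1 in TAM, and 4, 2, 2 and 10 in CD8. For Cox6b2 in TAM the combination minus IL-12 was 0.55 (95% interval -0.15 to 1.26) and IL-12 minus SBRT was -0.63 (-1.33 to 0.08). Both intervals count the variance of the shared unirradiated libraries in each effect, although it cancels in the difference, so they are too wide. They cannot decide whether the irradiated groups differed from the IL-12 group. The Cox6b2 differences are on the scale of the statistic times the median standard error of the 3 tables. That standard error was 0.18 in the IL-12 table against 0.26 and 0.25 in the SBRT and combination tables. The differences therefore do not equal the subtraction of the deposited fold changes. For Ndufa5 in IM the combination minus SBRT was 0.34 (-0.00 to 0.67), and for mt-Nd4l it was -0.12 (-0.61 to 0.37). These intervals are as wide as the effects themselves, so smaller differences were not detectable.

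The same treatment was also compared between populations, whose libraries are separate. Cox6b2 differed between TAM and IM, by 1.33 after SBRT (SE 0.35, 95% interval 0.65 to 2.01, adjusted p = 0.0465) and by 1.39 after the combination (SE 0.35, 0.72 to 2.07, adjusted p = 0.0113, normal test with Benjamini-Hochberg adjustment). In these contrasts 0.263% and 0.914% of all genes were called. The call after SBRT was lost when each table was centred on its median, with an adjusted p of 0.0527. TAM minus CD8 gave 0.70 after SBRT and 0.72 after the combination for Cox6b2, with adjusted p of 0.848 and 0.410. No other member was called in these 2 contrasts, and 0 of 105 were called in the other 7: CD8 minus IM after SBRT (0.02% of genes called), TAM minus CD8 after SBRT (0.644%), TAM minus IM (0.0565%), CD8 minus IM (0.467%) and TAM minus CD8 (0.196%) after IL-12, and CD8 minus IM (1.9%) and TAM minus CD8 (2.42%) after the combination.

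For the mitochondrially encoded members, the median difference of the effect in CD8 minus that in IM was 0.32 after SBRT, 0.27 after IL-12 and 0.34 after the combination, while that of the nuclear encoded members was 0.01, 0.02 and -0.06. No single one of the 13 was called. The nearest was mt-Nd4l after the combination, with a difference of 0.56 (95% interval 0.00 to 1.12, adjusted p = 0.517). For mt-Co1 the difference was 0.09 (-0.48 to 0.66). Between TAM and IM the median difference of the 13 was -0.00 after SBRT, -0.05 after IL-12 and 0.18 after the combination.

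Genes that work beside the complexes were read from further lists. Among 21 carriers and subunits with other names, Cycs, which encodes cytochrome c, rose in IM by 0.37 after IL-12 and 0.41 after the combination and in CD8 by 0.38 and 0.36 (adjusted p = 0.0191, 0.00329, 0.0137 and 0.0107 in the authors' deposited tables). Cyc1, the cytochrome c1 of complex III, rose in IM after the combination by 0.36 (adjusted p = 0.00643). These were the 5 calls of that list, with none lower and none in TAM.

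Of the 47 assembly factors in the files, 44 or 45 of which had the level minimum in a given population, there were 6 calls higher in the 9 tables and, beside that of Ndufaf7, 1 lower. Cox18, an insertase for mt-Co2, rose in IM after SBRT by 0.70 (adjusted p = 0.0265), and Coa5 rose in IM after the combination by 0.56 (adjusted p = 0.000878). Ttc19, which acts in complex III maturation, rose in TAM after the combination by 0.76 (adjusted p = 0.000365). In CD8, Cmc2 rose by 0.51 after IL-12 and 0.65 after the combination, Sco1, which delivers copper to complex IV, rose by 0.54 after the combination, and Cox14 fell by 0.40 there (adjusted p = 0.0190, 0.000254, 0.00986 and 0.0221). All genes tested were called higher at 0.379% in IM after SBRT and 3.69% after the combination, and at 2.24% in TAM after the combination. For CD8 the shares were 1.48% after IL-12 and 4.51% after the combination. Lower calls after the combination made up 3.03% in IM and 2.96% in CD8. With 1 or 2 calls per table and direction, these counts are no result about the list.

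Factors that transcribe, process and replicate mitochondrial DNA showed 1 call among 28 genes in 9 tables: Tbrg4, an RNA-binding protein of mitochondria, rose in CD8 after SBRT by 0.50 (adjusted p = 0.0305 in the authors' deposited table). There 0.306% of all genes tested were called higher, and 1 call is no result about the list. None of these factors was called in IM or TAM, where the mitochondrially encoded mRNAs lay below 0. The median of this list was 0.06 after SBRT, 0.04 after IL-12 and 0.01 after the combination in IM. In TAM it was 0.06, -0.02 and -0.09, and 8 of 26 were above 0 after the combination. In CD8 it was 0.06, -0.11 and -0.07, and 4 of 27 were above 0 after IL-12 and 6 of 27 after the combination. Of the 76 mitochondrial ribosome proteins with the level minimum, 68, 66 and 64 were above 0 in IM after SBRT, IL-12 and the combination, with medians of 0.11, 0.09 and 0.08. In CD8 58, 50 and 55 were above 0, with medians of 0.12, 0.07 and 0.11, and in TAM 38, 28 and 33, with medians of 0.00, -0.04 and -0.02. In IM and CD8 most of this list thus lay above 0, as did most nuclear encoded subunits. Of its 77 genes in the files, 1 rose in IM after IL-12, Mrpl12 by 0.41 (adjusted p = 0.0159), and 4 after the combination, Mrpl13 by 0.54, Mrpl12 by 0.42, Mrpl40 by 0.52 and Mrps35 by 0.43 (adjusted p = 0.000241, 0.00851, 0.0204 and 0.0231). In CD8 after the combination Mrpl51, Mrpl28, Mrpl18 and Mrps23 rose, by 0.31 to 0.45. In TAM none was called. The shares of all genes called higher in these tables, given above, were 1.91% in IM after IL-12, 3.69% in IM after the combination and 4.51% in CD8 after the combination, so the counts are near the background.

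For the cytosolic ribosomal proteins, also short and abundant nuclear mRNAs, the median was below 0 in every table except that of IM after SBRT. Of 85 with the level minimum, 46 were above 0 in IM after SBRT, 13 after IL-12 and 7 after the combination, with medians of 0.02, -0.08 and -0.15. In TAM 25, 2 and 15 were above 0, with medians of -0.05, -0.18 and -0.09, and in CD8 8, 17 and 11, with medians of -0.18, -0.08 and -0.15. The median was thus on the same side of 0 as that of the nuclear encoded subunits in IM after SBRT and in TAM after IL-12, and on the other side in the remaining 7 tables. In CD8 after the combination 6 were called lower, Rps27 by the most with -0.67 (adjusted p = 0.00189), and in IM 1, Rpl21, with -0.39 (adjusted p = 0.0103). Of all genes tested, 2.96% were called lower in CD8 and 3.03% in IM after the combination. The calls in the higher direction were both of Rps27l, a known p53 target, with 0.64 in TAM after SBRT and 0.44 in CD8 after IL-12 (adjusted p = 0.0416 and 0.0230). The shares of all genes tested called higher there were 0.933% and 1.48%. Of the 19 genes of the citric acid cycle and pyruvate dehydrogenase, Suclg1 rose in IM after the combination by 0.40 (adjusted p = 0.0160) and Cs, citrate synthase, in CD8 after the combination by 0.26 (adjusted p = 0.0384). Each was 1 of 19, where 3.69% and 4.51% of all genes tested were called higher, so neither is a result about the list.

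Of 10 regulators of mitochondrial biogenesis, Ppargc1b, a coactivator of oxidative genes, rose in IM after the combination by 0.67 (adjusted p = 0.00388 in the authors' deposited table). Perm1, a regulator first described in muscle, rose in TAM by 1.06 after SBRT and 0.78 after the combination (adjusted p = 0.00310 and 0.0421), and Myc fell there by 1.05 on the log2 scale after the combination (adjusted p = 0.000991). Each of these calls was 1 of the 9 regulators with the level minimum. Higher calls made up 3.69% of all genes tested in IM after the combination. For TAM the share was 0.933% after SBRT and 2.24% after the combination, where 1.97% were called lower. Nrf1 and Gabpa, whose products bind the motifs searched above, were not called in any table. Of 15 genes of uncoupling and mitochondrial redox control, Prdx5, a peroxiredoxin, rose in IM by 0.65 after IL-12 and 0.58 after the combination, and Sod2, the mitochondrial superoxide dismutase, by 0.48 after the combination (adjusted p = 0.0278). These were 1 and 2 of the 14 with the level minimum, beside 1.91% and 3.69% of all genes tested called higher. Neither the regulators nor the redox genes thus gave a result about their list.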

How the data were processed

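RNA of sorted cells was made into libraries with a TruSeq kit that does not mark strand, per the labels' protocols. The submitters' processing notes name GRCm38 as the build, and STAR 2.6.0c, featureCounts, Subread, Salmon, Trimmomatic 0.36 and FastQC 0.11.8 as tools, with no role or order. The tables deposited by the authors hold, per the file headers, DESeq2 results, 1 table per treatment and population with unirradiated tumours as the control. The level is a normalised signal deposited by the authors, the mean over all libraries of a population. The log2 fold change deposited by the authors is treated over unirradiated and is shrunken, judged from its ratio to the statistic. The deposited Wald statistic is a score, and its 2-sided normal p equals the deposited p-value. Between 13876 and 19273 genes per table have an adjusted p-value from the authors. No table gives values per library, so depth is unknown and no groups could be refitted.

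Members and lists were chosen with earlier results of these data known. A gene was called at a deposited adjusted p below 0.05, and "rose" or "fell" is used only of calls. Standard errors are the fold change over the statistic. Differences between tables took each effect as the statistic multiplied by the median standard error of the population's 3 tables, in a normal test, with Benjamini-Hochberg adjustment across every gene that had a p (scipy 1.17.1, pandas 2.3.3, numpy 2.4.6); shared controls were not subtracted, which makes tests within a population conservative. The test was tried on simulated data. Lengths, overlaps and shared 50-base windows came from GENCODE M21, which held 104 of the 105 names, and promoter windows from RefSeq tables (GRCm38.p6), which held 78 of the 92 nuclear encoded members. Named were all 13 mitochondrially encoded members, every called member, the paralogue families, members that differed between tables, those next to the level minimum and the strongest calls of each further list. Alternatives were the genes over which p was adjusted, the null spread, the scaling, the level minimum, the names counted, the standard error, the treatment of shared controls and the effect used.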

Additional observations from a re-analysis of the deposited data

Results flagged for a closer look

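The response of Cox6b2 to treatment differed between TAM and IM by a test of the difference itself. The log2 effect in TAM minus that in IM was 1.33 after SBRT (95% interval 0.65 to 2.01, adjusted p = 0.0465) and 1.39 after the combination (0.72 to 2.07, adjusted p = 0.0113). The gene has a low level in both populations, 67.07 in TAM and 77.64 in IM, and the TAM groups concerned hold 2 libraries each.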

How the results depend on the processing

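No paired analysis was possible because the deposited tables hold no value per library; for the same reason no library could be left out in turn. The recomputed medians, 36 of the mitochondrially encoded and 27 of the nuclear encoded members, all moved by less than the median standard error of their members. For the mitochondrially encoded members most of these could not have moved. The other level minimum and the removal of assembly factors left the same genes, and re-centring shifted a whole table by a small constant. Only leaving out members whose sequence recurs in another gene could move their medians more freely. That alternative was chosen after seeing the data. The count of 36 therefore says little about how stable these medians are. Re-centring moved the median of all genes by -0.0217 to 0.00385. With p adjusted over all genes with a p, IM after the combination kept 11 of 15 calls (without Cox8a, Ndufa12, Ndufs4 and mt-Nd4l), the calls in CD8 fell to 0 after IL-12 and 2 after the combination, and the mitochondrially encoded call in IM after the combination to 0. With the statistic scaled to its own spread, IM after the combination kept 2 members (Ndufa5 and Sdhb) and 0 mitochondrially encoded ones, and CD8 kept 0 after either treatment. With tables re-centred, IM after IL-12 gained 1 call (Ndufs3), the mitochondrially encoded call was 0, and TAM minus IM after SBRT had 0 members called. With the control variance removed, the combination minus SBRT in CD8 had 1 member called, Atp5sl. Both Cox6b2 calls in TAM held under the 3 alternatives. The files give no depth, and TAM groups of 2 libraries limit what could be called there.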
